A study of Mus musculus with 22 samples.

Results

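Ifit1, Ifit2, Ifit3, Rtp4, Rsad2, Cmpk2, Bst2, Ifi44, Xaf1 and Lgals3bp are 10 antiviral effector genes. They were chosen by name with earlier results of these data known, and were read through every probe set that the array annotation gives to them. Of these genes 9 had a probe set, 14 probe sets in all, among 18194 genes measured. Ifi44 was not analysed here. Where a gene had several probe sets (Rsad2, Cmpk2, Rtp4 and Xaf1), the one with the highest mean of log2(signal + 16) over the 22 arrays stands for it in the tests, and the others are given beside it for part of the results. Each array held liver RNA from 1 mouse. At 14 weeks of age there were 5 Trim24-/- and 5 wild-type (WT) mice, and at 5 weeks there were 4 Trim24-/- Rara+/-, 4 Trim24-/- and 4 WT mice. Trim24 had been disrupted in the germ line, and the compound mutants lacked 1 allele of Rara as well, so both changes were present in every cell of the body and not in liver alone. All genotypes came from an intercross of double heterozygotes on a hybrid C57BL/6 and 129/Sv background, which leaves animals of 1 group genetically unlike each other. The series asks whether loss of Trim24 raises interferon signalling in the liver and whether a lower dose of Rara, which encodes a retinoic acid receptor, lowers it again.

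Type I interferon binds a receptor on nearly every cell, and kinases bound to that receptor then activate a transcription factor complex that contains IRF9 and binds the interferon-stimulated response element (ISRE) in promoters. The genes that this complex switches on include effectors that act on viruses directly: IFIT proteins bind viral RNA and hold back its translation, viperin (Rsad2) makes a nucleotide that ends viral RNA chains, and tetherin (Bst2) holds budding virions on the cell surface. In an unstimulated liver most of these genes are kept at a low level, which makes them a common readout of interferon tone.

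The stretch of 250 bases before the annotated start and 50 after it was searched for the ISRE core, because members that move together may share it. RefSeq windows of GRCm38.p6 were held for 9 members (10 windows, since Ifit2 has 2 annotated starts), and Rtp4 was not among them. The core, TTTC and TTTC with any 2 bases between them (GAAA and GAAA on the other strand), was found in 4 of 10 windows, against 3.44% of the 32851 windows of all genes. Ifit1 held 2 copies, Ifit3 held 2, Bst2 held 2 that overlap, and Rsad2 held 1. A shorter core, TTTCNNTTT or AAANNGAAA, which every ISRE core contains, was found in 7 of 10 windows, against 10.6% of all. The additional windows were those of Ifi44, Xaf1 and Lgals3bp. The STAT dimer motif GAS, TTCNNNGAA, was found in 2 windows (1 of Ifit2, and Bst2, where it overlaps an ISRE core) against 8.3% of all. The nuclear receptor half-site AGGTCA or TGACCT, the unit of retinoic acid response elements, was found in 1 window, that of Xaf1, against 16.3% of all. A match of letters is a description and does not show that a factor binds there.

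The bases upstream of the start are shown for the 4 members with an ISRE core, and for Cmpk2 and Lgals3bp, 2 members that rose in Trim24-/- livers without one. Each line reads 5′ to 3′ on the strand of the gene, ends at the base before the start, and has matches to the ISRE core or the shorter core in capitals. They lie at chr19:34640639-34640888 on the plus strand for Ifit1, chr19:34583279-34583528 plus for Ifit3, chr12:26456453-26456702 minus for Rsad2, chr8:71537473-71537722 minus for Bst2, chr12:26468965-26469214 plus for Cmpk2 and chr11:118401960-118402209 minus for Lgals3bp.
Ifit1: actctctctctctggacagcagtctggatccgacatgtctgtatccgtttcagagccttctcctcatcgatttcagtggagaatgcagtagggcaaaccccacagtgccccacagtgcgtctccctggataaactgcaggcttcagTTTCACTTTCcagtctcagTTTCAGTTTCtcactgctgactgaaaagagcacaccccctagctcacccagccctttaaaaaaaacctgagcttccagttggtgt
Ifit3: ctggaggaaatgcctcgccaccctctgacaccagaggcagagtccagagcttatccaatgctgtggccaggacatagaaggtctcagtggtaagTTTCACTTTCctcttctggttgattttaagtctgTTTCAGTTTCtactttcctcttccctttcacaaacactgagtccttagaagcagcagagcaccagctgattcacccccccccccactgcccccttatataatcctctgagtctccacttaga
Rsad2: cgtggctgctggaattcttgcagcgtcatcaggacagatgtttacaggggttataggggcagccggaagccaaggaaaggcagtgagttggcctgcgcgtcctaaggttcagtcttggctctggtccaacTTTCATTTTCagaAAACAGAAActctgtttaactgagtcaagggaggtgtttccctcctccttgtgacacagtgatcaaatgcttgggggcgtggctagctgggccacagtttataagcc
Bst2: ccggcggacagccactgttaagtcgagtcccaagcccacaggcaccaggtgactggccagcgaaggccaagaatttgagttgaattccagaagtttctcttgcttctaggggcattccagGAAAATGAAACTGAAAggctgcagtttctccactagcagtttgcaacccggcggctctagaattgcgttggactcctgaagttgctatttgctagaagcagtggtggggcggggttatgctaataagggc
Cmpk2: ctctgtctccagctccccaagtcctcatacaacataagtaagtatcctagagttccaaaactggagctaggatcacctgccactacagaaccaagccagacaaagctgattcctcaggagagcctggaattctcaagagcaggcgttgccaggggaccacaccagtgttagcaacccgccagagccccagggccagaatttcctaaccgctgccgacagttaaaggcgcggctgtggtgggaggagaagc
Lgals3bp: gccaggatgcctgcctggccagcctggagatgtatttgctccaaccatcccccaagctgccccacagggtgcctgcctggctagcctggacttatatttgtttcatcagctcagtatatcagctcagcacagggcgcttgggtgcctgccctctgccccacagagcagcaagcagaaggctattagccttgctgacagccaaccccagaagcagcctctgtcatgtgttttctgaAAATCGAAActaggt
In Ifit1 the ISRE cores lie 104 and 85 bases before the start, and in Ifit3 at 156 and 122 bases, with the same letters in each gene (TTTCACTTTC, then TTTCAGTTTC). Rsad2 has its ISRE core 120 bases before the start and a shorter core on the other strand at 107. The single shorter core of Lgals3bp begins 15 bases before the start. Cmpk2 holds none of the 4 motifs. Cmpk2 and Rsad2 are neighbours on chromosome 12 with 0 genes between them and face away from each other, and Ifit2 and Ifit3 are neighbours on chromosome 19, with 4 genes between Ifit3 and Ifit1. One of those 4 is Ifit3b, a near copy of Ifit3, so how far the Ifit3 probe set reads each of them is uncertain.

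**Figure D1:**
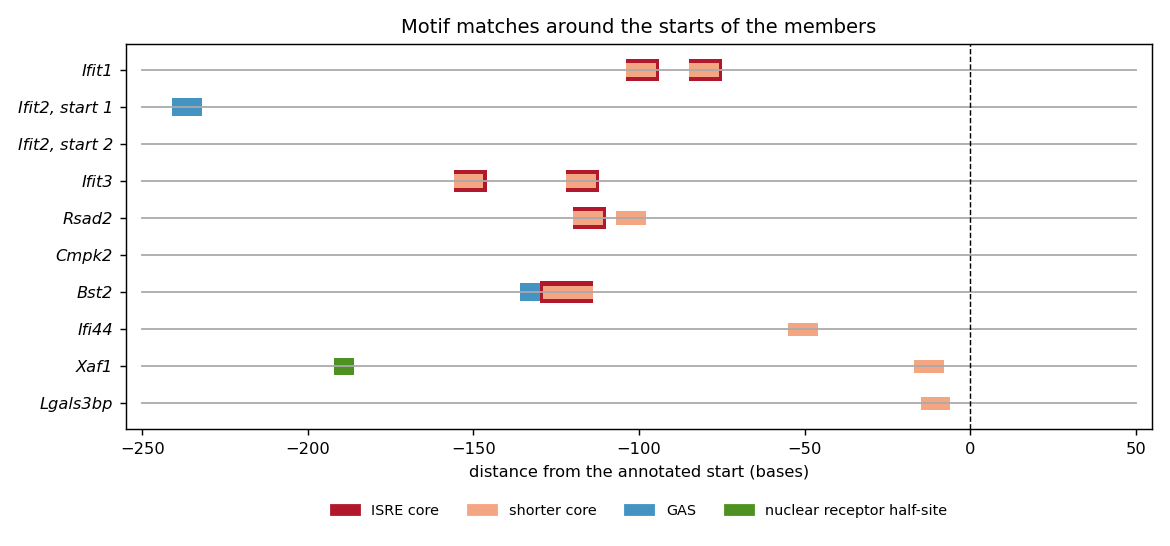
Position of each motif match, in bases from the annotated start (dashed line at 0), in the 10 windows of 9 members. Red marks the ISRE core, light orange the shorter core inside or apart from it, blue GAS and green the nuclear receptor half-site; 4 windows carry red marks and Cmpk2 carries no mark.

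Signals were on a linear scale, scaled by the authors so that the mean after trimming 2% at each end was 100.001 on every array, and were compared as log2(signal + 16), which understates the change of dim genes. The median signal was 12.6 to 16.1 per array at 5 weeks and 19.7 to 25.9 at 14 weeks. Arrays of the same group correlated at 0.948 to 0.992 over genes, and 0 pairs were identical. The closest were Trim24-/- Rara+/- animals 54, 66 and 82 (0.987 to 0.992 with each other) and Trim24-/- animals 1 and 8 (0.988), while WT animal 90 stood apart from the other WT arrays of 5 weeks (0.952 to 0.954). The Trim24 and Rara probe sets were not lower in the mutants. Trim24 read 235 ± 59.3 in Trim24-/- and 168 ± 24.2 in WT livers at 14 weeks (SD, n = 5 each), and 450 ± 34.1 in Trim24-/- Rara+/-, 363 ± 84.7 in Trim24-/- and 317 ± 111 in WT livers at 5 weeks (SD, n = 4 each). Rara, near the pseudocount, read 18.2 ± 9.97 in Trim24-/- Rara+/-, 13.7 ± 8.45 in Trim24-/- and 12.3 ± 11.7 in WT livers at 5 weeks. The sources do not tell which part of each gene these probe sets read relative to the disrupted part, so the genotypes stand as labelled and were not checked by them. The sex of the animals is not labelled. At 14 weeks every liver had low Xist (13.4 to 44.5) and high signal of the Y-linked Eif2s3y (245 to 344), and at 5 weeks every liver had the opposite (Xist 948 to 2169, Eif2s3y 0.350 to 6.59). Within each age the animals therefore showed 1 pattern of sex-linked signal, but sex and age cannot be told apart between the ages. Alb, the defining marker of hepatocytes, read 7059 or more on every array. The number of arrays limits the precision.

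At 5 weeks all 4 Trim24-/- livers lay above all 4 WT livers for 8 of 9 measured antiviral effectors, and the Trim24-/- Rara+/- livers overlapped with WT for every member. Between Trim24-/- and WT, 3 of 9 measured members rose (Rtp4, Lgals3bp and Cmpk2) and none fell at an adjusted p under 0.05 in limma, against 0.473% of all genes called higher and 0.126% called lower. Groups that did not overlap, with Trim24-/- higher, were found for 3.0% of all genes. Because the members were chosen with earlier results of these data known, these shares, and those of the later comparisons, describe them and are no independent support. All 9 estimates were positive, and the median log2 difference was 1.75, against -0.01 for all genes. An unadjusted p under 0.05 was found for 8 of 9 members and for 1972 of 18194 genes. All 4 Trim24-/- livers lay above all 8 other livers of 5 weeks for Ifit1, Ifit3, Rtp4, Cmpk2 and Lgals3bp, 5 of 9 members, as they did for 230 of 18194 genes (1.26%). The count of 3 rests on single arrays: it was 0 without Trim24-/- animal 1, Trim24-/- animal 8, WT animal 44 or WT animal 45, 1 without WT animal 2 or Trim24-/- Rara+/- animal 54, 66 or 82, 5 without Trim24-/- animal 6 and 7 without Trim24-/- animal 37, whereas the median difference stayed between 1.34 and 1.93. It was also 0 with Trim24-/- animals 1 and 8, or Trim24-/- Rara+/- animals 54, 66 and 82, averaged as 1 sample, and 2 without both WT animal 90 and Trim24-/- animal 6. In bulk liver RNA, a change in the number of cells of a type and a change in the RNA of each cell cannot be told apart.

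**Figure D2:**
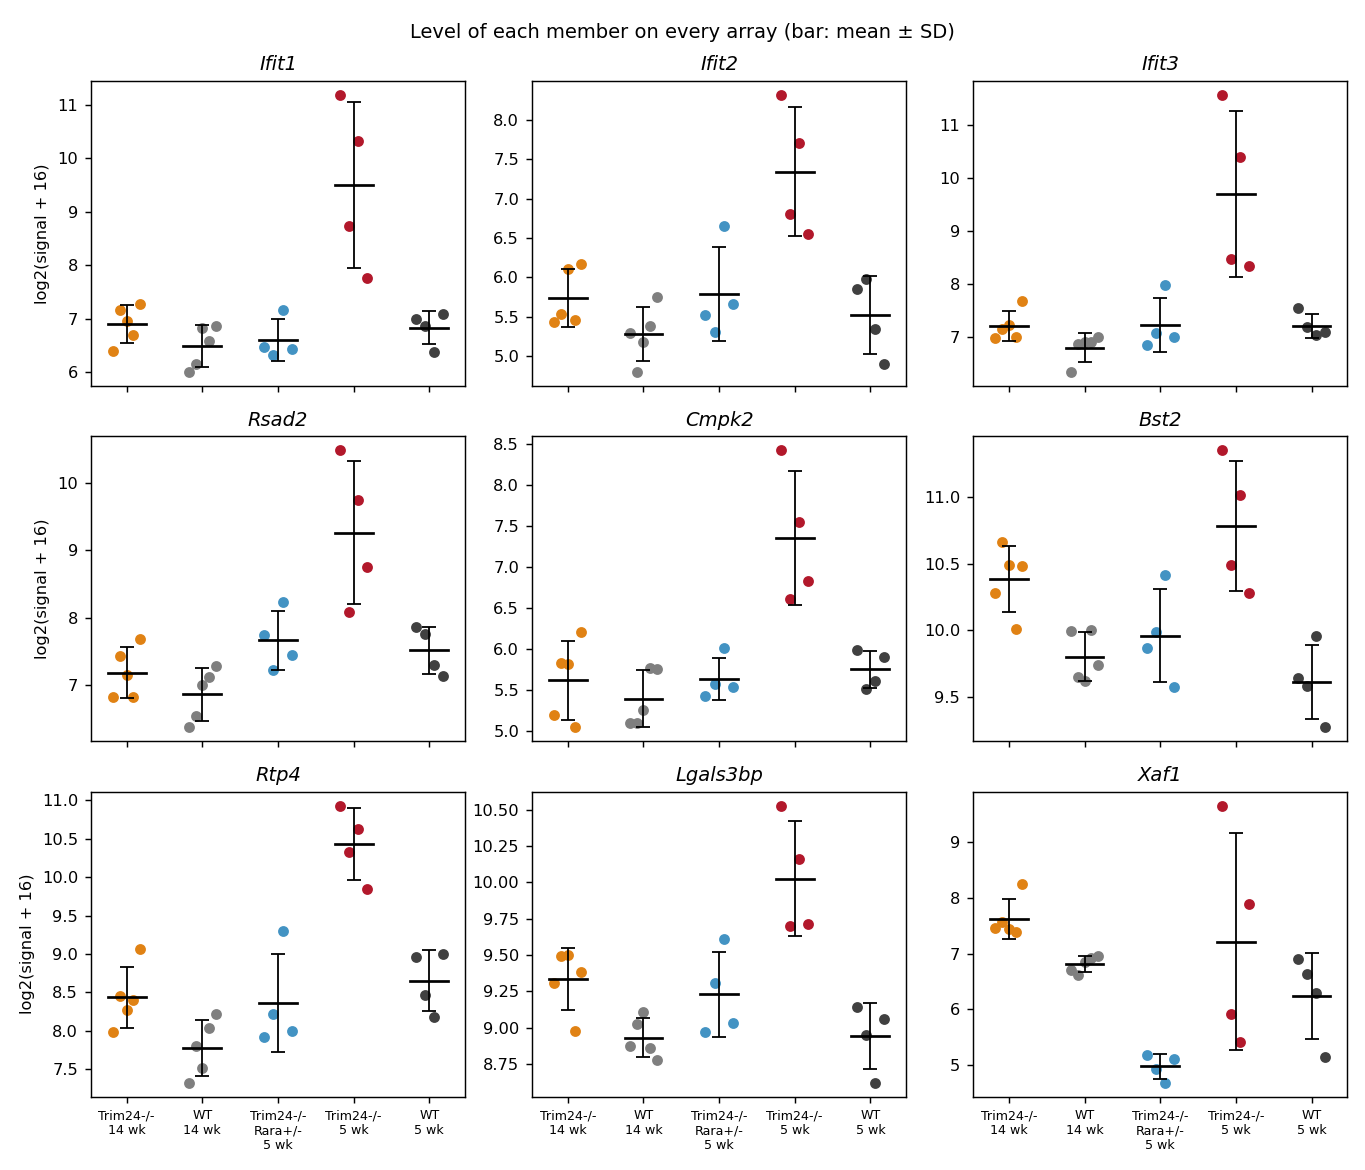
Level of the 9 measured members, as log2(signal + 16), on each of the 22 arrays, by genotype and age (n = 5 for each group at 14 weeks and n = 4 at 5 weeks). Points are arrays, the long bar is the mean and the error bar the SD; in every panel but that of Xaf1 the Trim24-/- livers of 5 weeks have the highest mean and a wide spread.

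The IFIT genes, whose proteins bind viral RNA through tetratricopeptide repeats, had the 3 largest differences from WT. Ifit1, which binds RNA that lacks the host's cap methylation, read 72.7, 64.4, 128 and 70.9 in Trim24-/- Rara+/- animals 54, 66, 73 and 82, against 2317, 408, 1275 and 201 in Trim24-/- animals 1, 6, 8 and 37 and 111, 100.2, 67.7 and 121 in WT animals 2, 44, 45 and 90. Every Trim24-/- liver lay above all the others, although the highest was 11.5 times the lowest. The log2 difference between Trim24-/- and WT was 2.67 ± 0.56 (SE, limma, adjusted p = 0.0617), which missed the threshold, as did that between Trim24-/- Rara+/- and Trim24-/- (-2.90 ± 0.56, adjusted p = 0.0732). Ifit3, whose human form binds IFIT1 and steadies it, read 99.9, 119, 238 and 112 in the same order of Trim24-/- Rara+/- animals, 3023, 339, 1332 and 308 in the Trim24-/- animals and 171, 129.7, 115 and 122 in the WT animals. Again no Trim24-/- liver overlapped another group, and again the differences missed the threshold (2.48 ± 0.58 against WT, adjusted p = 0.0954, and -2.46 ± 0.58 for Trim24-/- Rara+/- against Trim24-/-, adjusted p = 0.102). Ifit2, linked to cell death as well as to RNA binding, read 30.1, 23.5, 84.7 and 34.5 in the Trim24-/- Rara+/- animals, 304, 95.7, 193 and 77.7 in the Trim24-/- animals and 41.7, 47.0, 24.4 and 13.8 in the WT animals. Its Trim24-/- livers lay above WT, but animal 73 of the compound mutants lay inside their range. The log2 difference from WT was 1.83 ± 0.40 (adjusted p = 0.0681).

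Rsad2 and Cmpk2 are a head-to-head pair, and their products act in the same pathway: Cmpk2 is a mitochondrial nucleotide kinase, and viperin converts the triphosphate CTP into a chain terminator. Cmpk2 read 27.0, 31.6, 48.2 and 30.2 in Trim24-/- Rara+/- animals 54, 66, 73 and 82, 328, 81.7, 172 and 97.6 in Trim24-/- animals 1, 6, 8 and 37, and 47.3, 29.3, 32.7 and 43.5 in WT animals 2, 44, 45 and 90. It rose in Trim24-/- livers by 1.61 ± 0.31 on the log2 scale (limma, adjusted p = 0.0427), and the groups did not overlap. The difference of -1.72 ± 0.31 between Trim24-/- Rara+/- and Trim24-/- livers missed the threshold (adjusted p = 0.0571). Its second probe set read 64.5 to 192 in Trim24-/- and 24.6 to 45.7 in WT livers, without overlap (1.34 ± 0.27). Rsad2 read 199, 134, 286 and 158 in the Trim24-/- Rara+/- animals, 1423, 256, 842 and 414 in the Trim24-/- animals and 217, 201, 141 and 125 in the WT animals. The Trim24-/- livers lay above every WT liver, the nearest being animal 6 at 256 against WT animal 2 at 217, but animal 73 of the compound mutants, at 286, lay inside their range. The log2 difference from WT was 1.75 ± 0.42 (adjusted p = 0.108), and the other probe sets of Rsad2 gave 1.22 ± 0.38 and 1.53 ± 0.45, the last with overlapping groups.

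Rtp4, a chaperone of receptors at the cell surface that also restrains flavivirus replication, had the smallest p of the members. It read 226, 282, 615.9 and 240.4 in Trim24-/- Rara+/- animals 54, 66, 73 and 82, 1937, 1273, 1567 and 901 in Trim24-/- animals 1, 6, 8 and 37, and 483, 336, 274 and 496 in WT animals 2, 44, 45 and 90. Rtp4 rose 3.44-fold in Trim24-/- against WT livers (log2 difference 1.78 ± 0.31, limma, adjusted p = 0.0275), and no Trim24-/- liver overlapped with the other groups. In Trim24-/- Rara+/- livers Rtp4 fell 4.21-fold against Trim24-/- livers (-2.07 ± 0.31, adjusted p = 0.0275). The second Rtp4 probe set was dim, at 9.76 to 21.3 in Trim24-/- Rara+/-, 33.8 to 79.8 in Trim24-/- and 14.8 to 30.8 in WT livers, with the same order and no overlap of Trim24-/- with either group.

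Bst2 and Lgals3bp were measured well above the pseudocount in every liver, and their log2 differences from WT were the smallest apart from that of Xaf1. Bst2 read 916, 1001, 1353 and 745 in Trim24-/- Rara+/- animals 54, 66, 73 and 82, 2604, 1421, 2056 and 1229 in Trim24-/- animals 1, 6, 8 and 37, and 785, 751, 977 and 602 in WT animals 2, 44, 45 and 90. All Trim24-/- livers lay above WT, while animal 73 of the compound mutants lay above Trim24-/- animal 37. The log2 difference from WT was 1.17 ± 0.24 (limma, adjusted p = 0.0533), just outside the threshold. Lgals3bp, a secreted glycoprotein that binds galectins, read 487, 617, 767 and 508 in the Trim24-/- Rara+/- animals, 1462, 815, 1129.7 and 825 in the Trim24-/- animals and 549, 479, 378 and 517 in the WT animals. It rose 2.12-fold in Trim24-/- livers (1.08 ± 0.20, adjusted p = 0.0363), and its Trim24-/- livers lay above both other groups.

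Xaf1, which counters the apoptosis inhibitor XIAP, has 2 probe sets that disagreed. The one used, with the higher mean log2 level over the 22 arrays (6.63 against 6.59) but the lower mean signal (128 against 181), read 20.6, 14.4, 9.80 and 18.7 in Trim24-/- Rara+/- animals 54, 66, 73 and 82, 785, 44.2, 26.6 and 220.03 in Trim24-/- animals 1, 6, 8 and 37, and 103, 83.1, 62.7 and 19.5 in WT animals 2, 44, 45 and 90. The other one read 236, 218, 405 and 212 in the Trim24-/- Rara+/- animals, 28.3, 712, 1278 and 5.45 in the Trim24-/- animals and 155, 123, 84.0 and 270.2 in the WT animals. Trim24-/- animals 1 and 37 were thus high on the probe set used and low on the other, and animals 6 and 8 the other way round. Neither probe set was called between Trim24-/- and WT livers in limma (0.97 ± 0.73, adjusted p = 0.685, and 0.10 ± 1.05 in the fit of every probe set, adjusted p = 0.991). Between Trim24-/- Rara+/- and Trim24-/- livers the estimates had opposite signs, at -2.23 and 0.67. At 14 weeks the other probe set read 12.9 to 27.9 in Trim24-/- and 20.4 to 32.8 in WT livers. Why the probe sets are opposed was not tested, and the sign of Xaf1 against Trim24-/- depends on which is read. The counts, medians and means given over 9 members hold Xaf1 through the probe set used. Where reading it from the other one changes a count in a comparison of groups, that count is given too, a choice made after the values were seen. Group means and orders of animals are also given without Xaf1.

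**Figure D3:**
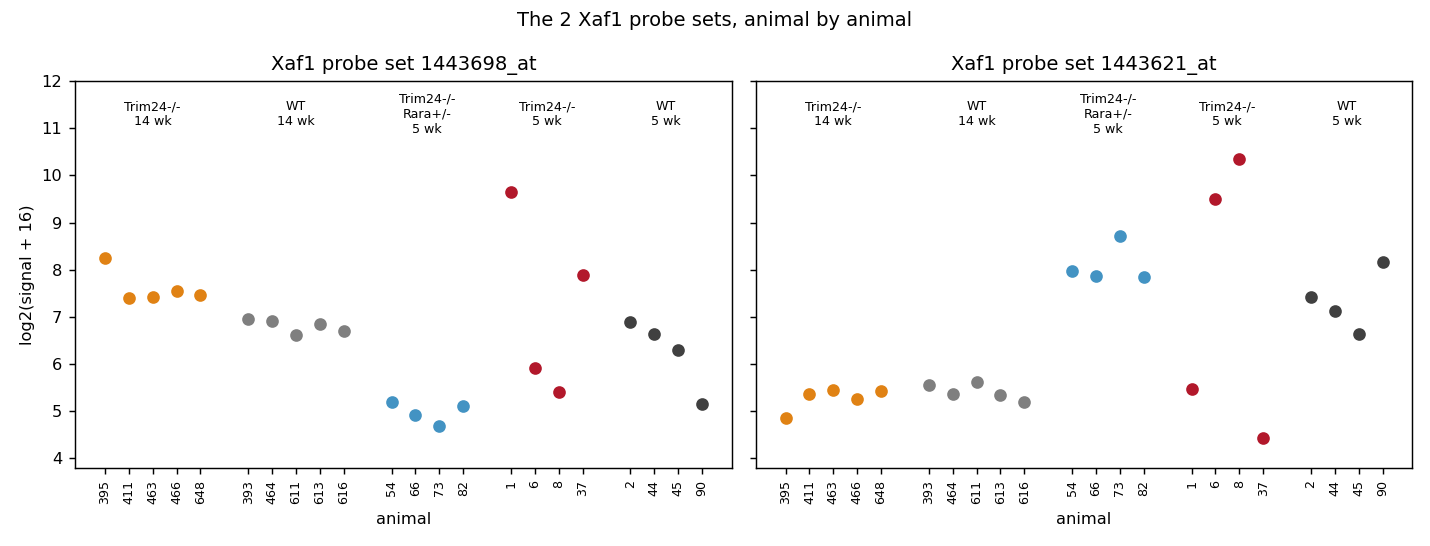
The 2 probe sets annotated to Xaf1, as log2(signal + 16), animal by animal, with groups marked above the points. At 5 weeks Trim24-/- animals 1 and 37 are high on the probe set used in the tests (left) and low on the other (right), and animals 6 and 8 are the reverse.

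The compound mutants were set against 2 groups at 5 weeks. Only the comparison with Trim24-/- livers differs by label in Rara alone, since that with WT livers differs in Trim24 as well. No group had 1 allele of Rara with Trim24 intact. The 2 comparisons share the compound mutant arrays with each other, and each shares 1 group with the comparison of Trim24-/- and WT. Between Trim24-/- Rara+/- and Trim24-/- livers all 9 estimates were negative, 9 had an unadjusted p under 0.05, and 1 of 9 fell in limma (Rtp4), against 0.104% of all genes called lower. Over all genes 2089 of 18194 had an unadjusted p under 0.05. The median log2 difference was -1.72, against -0.01 for all genes, and the groups did not overlap, with the compound mutants lower, for 6 of 9 members, against 5.13% of all genes. Members were chosen with earlier results known, and the same Trim24-/- arrays serve here as in the comparison with WT. These shares therefore describe the members and are no independent support. With Xaf1 read from its other probe set, 8 of 9 estimates were negative, 8 had an unadjusted p under 0.05, the groups did not overlap for 5 of 9, and the median was -1.60. The estimates that missed the threshold included -1.60 ± 0.42 for Rsad2 (adjusted p = 0.146), -1.56 ± 0.40 for Ifit2 (0.135), -0.82 ± 0.24 for Bst2 (0.189) and -0.80 ± 0.20 for Lgals3bp (0.135). The other probe sets gave -1.11 ± 0.38 and -1.35 ± 0.45 for Rsad2, -1.68 ± 0.27 for Cmpk2 and -1.19 ± 0.20 for Rtp4. The call of Rtp4 was lost without Trim24-/- animal 1, Trim24-/- animal 8 or Trim24-/- Rara+/- animal 54, 66 or 82, where the count was 0, while 2 members were called without Trim24-/- animal 6 and 4 without Trim24-/- animal 37.

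Between Trim24-/- Rara+/- and WT livers 0 of 9 members were called in limma, 0 had an unadjusted p under 0.05, and 0.0550% of all genes were called in either direction. Over all genes 1353 of 18194 had an unadjusted p under 0.05. The groups overlapped for every member, where 4.62% of all genes had groups that did not. The median difference was 0.01 on the log2 scale, with 5 estimates above 0 and 4 below. It was 0.15, with 6 above and 3 below, with Xaf1 from its other probe set. Bst2 (0.35, with a 95% interval of -0.17 to 0.87) and Lgals3bp (0.29, -0.15 to 0.72) were the highest, and Rtp4 (-0.29, -0.97 to 0.39) and Ifit1 (-0.23, -1.45 to 0.99) the lowest apart from Xaf1 (-1.26, -2.84 to 0.31, and 0.76 from its other probe set). The intervals of Ifit1 and of Ifit3 (-1.24 to 1.26) are wide, so equal levels were not shown, while differences as large as those of Trim24-/- livers (2.67 and 2.48) lie outside them. These intervals and p-values rest on 1 spread per gene for all groups of 5 weeks, Trim24-/- livers included. The log2 SD of Ifit1 was 0.38 in Trim24-/- Rara+/-, 1.54 in Trim24-/- and 0.31 in WT livers. That of Ifit3 was 0.51, 1.56 and 0.23. With only the groups compared in the fit, 0 members were called as well.

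**Figure D4:**
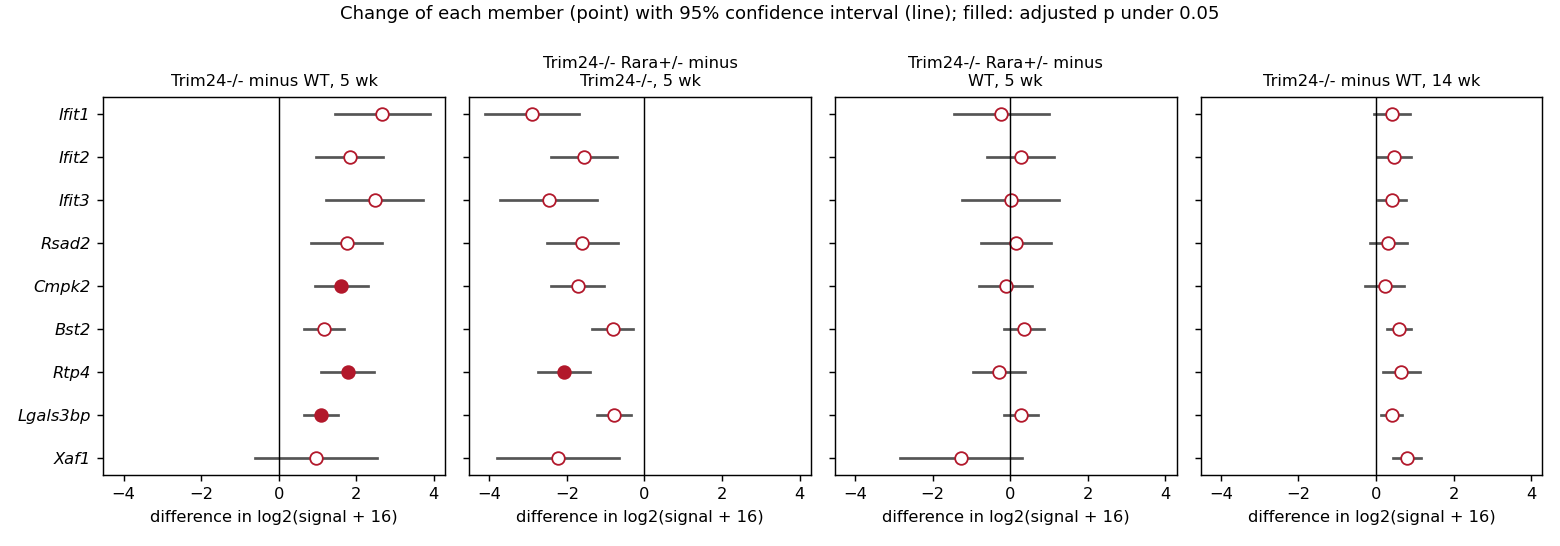
Difference of each member in log2(signal + 16), as the estimate (point) with its 95% confidence interval (line), in 4 comparisons. Filled points passed an adjusted p of 0.05 over all 18194 genes: Cmpk2, Rtp4 and Lgals3bp between Trim24-/- and WT at 5 weeks, and Rtp4 between Trim24-/- Rara+/- and Trim24-/-.

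At 14 weeks the estimates for the same genotypes were lower, but their difference from those at 5 weeks was called for 0 of 9 members. All 9 estimates for Trim24-/- against WT were positive, with a median of 0.41 (0.00 for all genes), but 0 of 9 members were called in limma, while 6 had an unadjusted p under 0.05 and 0.181% of all genes were called higher. Over all genes 1498 of 18194 had an unadjusted p under 0.05. The groups did not overlap for Bst2 and Xaf1, 2 of 9 members, against 1.07% of all genes. Bst2 read 1230.1, 1608, 1424, 1016 and 1420.03 in the 5 Trim24-/- livers, against 1006, 788, 770.02, 1008 and 841 in the 5 WT livers. Its lowest Trim24-/- liver, 1016, stood only just above the highest WT liver, 1008 (0.59 ± 0.14, adjusted p = 0.173). The Xaf1 probe set used read 159, 172, 156, 152 and 288 in the Trim24-/- livers and 88.6, 82.2, 99.4, 105 and 107 in the WT livers, in the same order of animals, and had the smallest p of the members at this age (0.81 ± 0.16, adjusted p = 0.0873), while the other probe set gave -0.14 ± 0.14. With Xaf1 from that other set, 8 of 9 estimates were positive, 5 had an unadjusted p under 0.05, and only Bst2 had groups without overlap.

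The members with the largest estimates at 5 weeks overlapped with WT at 14 weeks. Rtp4 read 238, 335, 294, 322 and 519 in the Trim24-/- livers and 144, 207, 168, 246 and 281 in the WT livers, with overlapping groups (0.66 ± 0.21, limma, adjusted p = 0.366). Its second, dim probe set gave 0.05 ± 0.26. Ifit1 read 68.8, 127, 109, 88.1 and 139 in the Trim24-/- livers and 48.1, 55.6, 97.1, 80.0 and 101 in the WT livers (0.41 ± 0.21, adjusted p = 0.653). Ifit3 was at 111 to 189 in Trim24-/- and 65.0 to 112 in WT livers, Rsad2 at 97.3 to 189.6 and 66.6 to 140.4, and Cmpk2 at 16.8 to 57.5 and 18.1 to 38.2. For Rsad2 the probe set used gave 0.32 ± 0.22 and the others 0.54 ± 0.19 and 0.43 ± 0.15. For Cmpk2 they gave 0.22 ± 0.23 and 0.20 ± 0.17. Ifit2 was at 27.1 to 55.9 in Trim24-/- and 11.7 to 37.8 in WT livers, and Lgals3bp at 489 to 710.01 and 423 to 537. In all of these the groups overlapped.

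The change at 14 weeks minus the change at 5 weeks was negative for all 9 members, with a median of -1.37 (0.00 for all genes). In limma 0 of 9 were called, 7 had an unadjusted p under 0.05, and 0.0330% of all genes were called in either direction. Over all genes 1163 of 18194 had an unadjusted p under 0.05. Ifit1 (-2.26 ± 0.62, adjusted p = 0.374) and Ifit3 (-2.07 ± 0.62, adjusted p = 0.453) had the largest estimates, and Xaf1 (-0.16 ± 0.77) the smallest. Without Trim24-/- animal 37 of 5 weeks 1 member, Ifit1, was called. Since the ages also differ in sex-linked signals and in median signal, age cannot be told apart from these.

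The order of the group means shows how far Trim24-/- livers of 5 weeks stood from the rest. For Ifit1, Ifit3, Rtp4, Cmpk2 and Lgals3bp they were highest and did not overlap with the next group, while all lower neighbours overlapped each other. For Ifit2, Rsad2 and Bst2 they were highest but overlapped with the next group, which was Trim24-/- Rara+/- for Ifit2 and Rsad2 and Trim24-/- at 14 weeks for Bst2. For Xaf1, on the probe set used, the highest mean was that of Trim24-/- livers at 14 weeks, and every neighbour overlapped. On its other probe set that group had the lowest mean (5.27), and the Trim24-/- Rara+/- livers had the highest (8.10). The lowest mean was that of WT livers at 14 weeks for 7 of 9 members. The mean log2 level over the 9 members was 7.60 ± 0.30 (SD, n = 5) in Trim24-/- and 7.13 ± 0.21 in WT livers at 14 weeks, and 7.27 ± 0.34 (SD, n = 4) in Trim24-/- Rara+/-, 9.07 ± 0.89 in Trim24-/- and 7.36 ± 0.23 in WT livers at 5 weeks. Over the 8 members other than Xaf1 it was 7.60 ± 0.30 and 7.17 ± 0.22 in those groups at 14 weeks, and 7.56 ± 0.41, 9.30 ± 0.88 and 7.50 ± 0.19 in those at 5 weeks, so that the order of Trim24-/- Rara+/- and WT livers turned.

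In each group 1 animal was highest for 5 to 9 of the 9 members. Among the Trim24-/- livers of 5 weeks, animal 1 was highest for 9 of 9 members and animal 8 second for 8 of 9, Xaf1 being the exception. The lowest was animal 37 for 5 members and animal 6 for 3. Without Xaf1, animal 1 was highest for 8 of 8 members and animal 8 second for 8 of 8, and the median excess over the WT mean was 2.74 on the log2 scale in animal 1, 2.08 in animal 8, 1.06 in animal 37 and 1.07 in animal 6. Among the compound mutants animal 73 was highest for 8 of 9 members, and for 8 of 8 without Xaf1, with a median of 0.70 against WT over those 8, while animals 54, 66 and 82 were at -0.16, -0.19 and -0.14. Below animal 73 no order was shared. Without Xaf1, animal 66 was second for 5 and lowest for 3 of 8 members, and animal 54 second for 2 and lowest for 4. At 14 weeks 1 Trim24-/- liver was highest of its group for 7 of 9 members and 1 WT liver for 6 of 9. Among the WT livers of 5 weeks animal 2 was highest for 5 members and second for 4. The other WT animals kept no such order: animal 90 was highest for 2 and lowest for 4, and animal 45 highest for 1 and lowest for 4. Members share the RNA of 1 liver, so that these orders count as 1 observation per animal and not as 9.

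**Figure D5:**
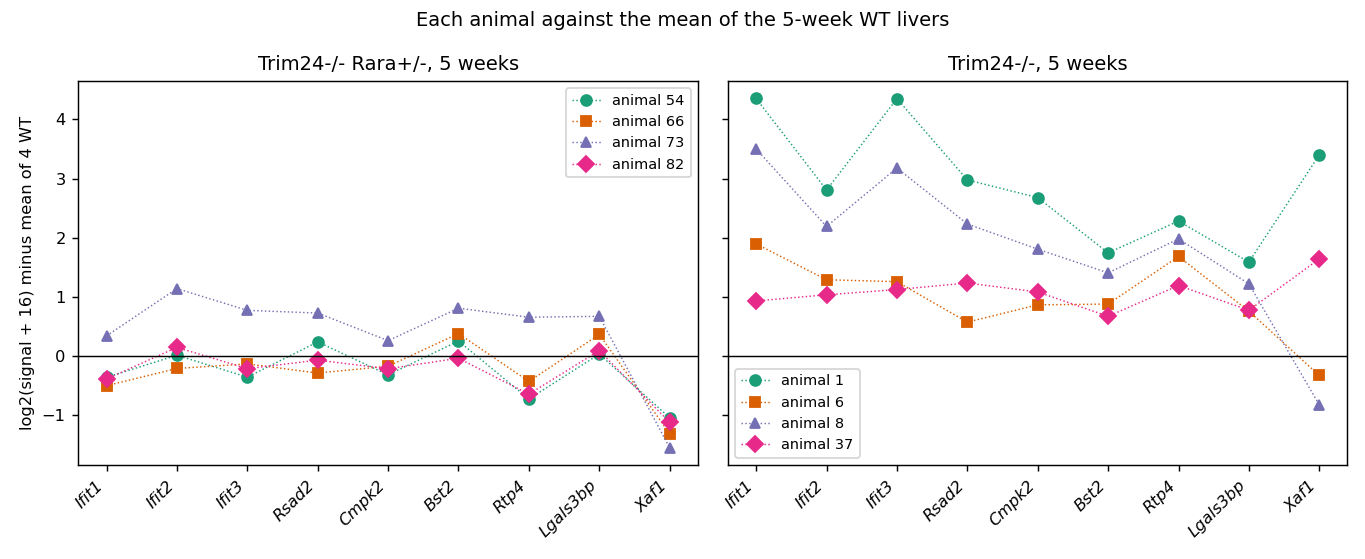
Level of each member in each compound mutant (left) and Trim24-/- liver (right) of 5 weeks, as log2(signal + 16) minus the mean of the 4 WT livers of that age; dotted lines join the values of 1 animal. Animal 1 is highest for 9 of 9 members among Trim24-/- livers, and animal 73 for 8 of 9 among the compound mutants.

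The spread between animals was widest in the same group. The SD of the log2 level had a median over the members of 0.36 in Trim24-/- and 0.34 in WT livers at 14 weeks, and of 0.38 in Trim24-/- Rara+/-, 0.82 in Trim24-/- and 0.31 in WT livers at 5 weeks. It was largest in Trim24-/- livers of 5 weeks for 8 of 9 members, the exception being Rtp4. For all genes of a log2 level of 6 or more the median SD in that group was 0.185, inside the range of 0.145 to 0.215 in the other groups.

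Other steps of the interferon pathway were read from lists of ligands, receptors, signalling factors, inhibitors and further stimulated genes. None of the 6 measured ligands was called between Trim24-/- and WT livers at 5 weeks (limma, 1 with an unadjusted p under 0.05), and all 6 estimates were below 0. Ifna1 read 6.80 ± 4.76 in Trim24-/- and 17.1 ± 5.39 in WT livers, and Ifnb1 4.47 ± 5.90 and 10.6 ± 6.25 (SD, n = 4 each). All Trim24-/- values of both were below the pseudocount of 16, and 1 to 2 of the 4 WT values of each were above it. None of the 6 receptor genes was called (2 with an unadjusted p under 0.05, as had 1972 of 18194 genes in this comparison). Il10rb, a shared subunit of interferon lambda and interleukin 10 receptors, read 197 ± 23.3 in Trim24-/- and 129 ± 32.0 in WT livers (0.58 ± 0.17, adjusted p = 0.179).

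Of 11 measured JAK-STAT and IRF factors 1 rose and none fell between Trim24-/- and WT livers at 5 weeks, against 0.473% and 0.126% of all genes. The factor that rose was Irf7, which amplifies the interferon response, at 265 ± 99.4 in Trim24-/- Rara+/-, 927 ± 544 in Trim24-/- and 198 ± 49.1 in WT livers of 5 weeks (1.96 ± 0.37 for Trim24-/- against WT, limma, adjusted p = 0.0387). Irf9, a part of the ISRE-binding complex, read 155 ± 41.2, 288 ± 46.9 and 161 ± 26.3 in those groups, without overlap of Trim24-/- and WT (0.78 ± 0.17, adjusted p = 0.0703). Of 8 feedback inhibitors 1 rose, Usp18, which blocks the interferon receptor from inside, at 289 ± 212 in Trim24-/- Rara+/-, 1068 ± 564 in Trim24-/- and 219 ± 36.985 in WT livers (2.06 ± 0.41, adjusted p = 0.0452). Usp18 also rose at 14 weeks, where it read 243 ± 72.9 in Trim24-/- and 96.6 ± 19.3 in WT livers (1.17 ± 0.21, limma, adjusted p = 0.0469), where 0 members were called. Of all genes 0.181% were called higher there. The highest estimate among the inhibitors, 1.54, was that of another gene and was not called. Of the 11 factors 0 were called at that age and 8 had an unadjusted p under 0.05, against 1498 of 18194 genes. Their estimates ran from -0.59 to 0.54. Neither Irf7 nor Usp18 was called between Trim24-/- Rara+/- and Trim24-/- livers (-1.60 ± 0.37, adjusted p = 0.102, and -1.88 ± 0.41, adjusted p = 0.0876).

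Among 39 other measured interferon-stimulated genes 16 rose and none fell in Trim24-/- against WT livers at 5 weeks, with a median log2 difference of 1.06. Of all genes 0.473% were called higher and 0.126% lower. The guanylate-binding protein Gbp6 (2.31 ± 0.27, limma, adjusted p = 0.00308) and the membrane protein gene Ifi27l2a (1.69 ± 0.21, adjusted p = 0.00477) had smaller p-values than any member. Between Trim24-/- Rara+/- and Trim24-/- livers 6 of 39 fell, against 0.104% of all genes, with a median of -1.03. Among them were the immunity-related GTPase Igtp (-1.73 ± 0.21, limma, adjusted p = 0.0193) and Gbp6 (-2.11 ± 0.27, adjusted p = 0.0226). Between Trim24-/- Rara+/- and WT livers 0 of 39 were called in limma, with 2 at an unadjusted p under 0.05 and a median of 0.08. The compound mutants lay above every WT liver for 3 of 39 and below every WT liver for 0. Groups without overlap, in either direction, were found for 4.62% of all genes, and 0.0550% were called. Ifi27 was among those 3, at 1247 ± 574 in Trim24-/- Rara+/- and 545 ± 43.8 in WT livers (SD, n = 4 each). Its log2 difference was 1.08 ± 0.31 (limma, adjusted p = 0.339). Between Trim24-/- Rara+/- and Trim24-/- livers Ifi27 was not called in limma (adjusted p = 0.205), and the groups overlapped. At 14 weeks 1 of 39 rose, against 0.181% of all genes, with a median of 0.31 for the list. It was Ifi27, at 2333 ± 302 in Trim24-/- and 827 ± 176 in WT livers (1.49 ± 0.15, limma, adjusted p = 9.14e-04).

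The genes whose pattern was most like the mean of the members were found by the mean absolute difference in log2 level over 22 arrays, each gene centred within each age. Among 8327 genes of sufficient level the nearest were Irgm2 (0.191), Rnf213 (0.204), Gbp7 (0.204), Irgm1 (0.220), Irf7 (0.233), Shisa5 (0.233), Parp12 (0.235) and Cxcl10 (0.236), where the median gene was at 0.566. Of the members themselves Cmpk2 (0.130) and Rsad2 (0.169) lay closest to that mean and Xaf1 (0.550) farthest. Arrays and the members' own mean, which holds Xaf1 through the probe set used, are shared by all these values, and they carry no test. Irgm2, an immunity-related GTPase, read 261 ± 63.9 in Trim24-/- Rara+/-, 899 ± 326 in Trim24-/- and 318 ± 121 in WT livers of 5 weeks.

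The liver holds other cells than hepatocytes, and their markers were read beside the members. The summed signal of 16 macrophage and Kupffer cell markers was 6525 to 10725 in Trim24-/- Rara+/-, 6645 to 13292 in Trim24-/- and 4874 to 9680.2 in WT livers of 5 weeks. Its order among Trim24-/- livers was opposed to that of the members: animals 1 and 8, highest for the members, had the lowest sums (6645 and 6834), and animals 37 and 6 the highest (13292 and 10196). In the compound mutants, in contrast, animal 73 was highest for both (10725). These are sums of linear signals, so bright markers weigh most in them. Of these 16 markers 14 had positive estimates in Trim24-/- against WT livers, 7 had an unadjusted p under 0.05 and the median was 0.39, and 1 rose, the pore-forming Mpeg1 (1.69 ± 0.30, limma, adjusted p = 0.0275), and the defining markers Adgre1 (0.21 ± 0.31) and Clec4f (0.23 ± 0.35) were not called. Mpeg1 read 1364, 749, 910 and 943 in Trim24-/- animals 1, 6, 8 and 37, highest in animal 1, where Adgre1 (124) and Clec4f (449) were lowest of that group. At 14 weeks 16 of 16 estimates were positive, 10 had an unadjusted p under 0.05 and 0 were called in limma, with a median of 0.44 beside the members' 0.41. Of all 18194 genes, 1972 had an unadjusted p under 0.05 between Trim24-/- and WT livers at 5 weeks and 1498 at 14 weeks.

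Sums for T and NK cell markers (10 genes) were 44.4 to 152 in Trim24-/- Rara+/-, 115 to 209 in Trim24-/- and 74.6 to 95.9 in WT livers of 5 weeks, and those for plasmacytoid dendritic cell markers (7 genes without Bst2, which is itself such a marker) were 257 to 340.4, 316 to 513 and 256 to 293. Both separated Trim24-/- from WT livers, but 0 of their genes were called in limma, with 2 of the 10 and 2 of the 7 at an unadjusted p under 0.05, against 1972 of 18194 genes. The defining markers Cd3e (19.2 ± 11.1 in Trim24-/-, 9.93 ± 6.32 in WT) and Siglech (7.05 ± 4.69 and 6.68 ± 3.99) were near or below the pseudocount. In the same comparison at 5 weeks neutrophil, B cell, endothelial and hepatocyte lists had 0 called genes and overlapping sums. An unadjusted p under 0.05 was found for 0 genes in each of them. At 14 weeks the macrophage sum was 5134 to 9617 in Trim24-/- and 4344 to 5720.3 in WT livers, and sums of the T and NK cell markers (165 to 185 in Trim24-/- and 125 to 149 in WT livers) again did not overlap. Of the 8 hepatocyte markers 0 had positive estimates at that age (median -0.13, 1 with an unadjusted p under 0.05 in limma). Between Trim24-/- Rara+/- and Trim24-/- livers estimates were positive for 4 of 16 macrophage, 0 of 10 T and NK cell and 2 of 7 plasmacytoid dendritic cell markers. They were positive for 0 of 6 neutrophil, 1 of 5 B cell, 8 of 8 endothelial and 3 of 8 hepatocyte markers, and 0 were called in any list. The part of these cells in the members' levels was not tested.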

How the data were processed

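Liver RNA of 22 mice was hybridised to Affymetrix arrays, 1 per animal. Linear intensity values of 45101 probe sets, already scaled per array, were deposited by the authors, and the labels name no software for this. Per the labels' protocols, 100 ng of RNA went through successive rounds of amplification, which can widen the spread of dim genes. Groups came from the sample titles. Probe sets with 1 gene symbol (34958) named genes, while 932 with several and 9211 outside the annotation named none.

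Values were tested as log2(signal + 16), per gene the probe set of the highest mean log2 level, with limma 3.58.1 (lmFit, eBayes) in R 4.3.3, adjusted by Benjamini-Hochberg over 18194 genes and called under 0.05. One model of 12 arrays held the groups of 5 weeks, another of 10 arrays those of 14 weeks, and the interaction used all 22. Members and lists were chosen with earlier results of these data known. Named beyond the members were called genes of the pathway lists and up to 2 more per list by p (4 for other stimulated genes, per comparison), the defining cell markers with any called marker, and the 8 most alike genes. The fit was also run on simulated data with the same spread in all groups of a gene. The members' spread was wider in Trim24-/- livers of 5 weeks, so those runs do not gauge the members' calls. Promoter windows came from RefSeq.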

Additional observations from a re-analysis of the deposited data

Results flagged for a closer look

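In 45 groups of values (9 members in 5 groups), 3 held a sample far from the rest of its group, where chance gives about 1 in 20. Ifit1 read 128.137 in Trim24-/- Rara+/- animal 73, with 72.7 as the next highest of that group. Ifit3 read 64.9658 in 1 WT liver of 14 weeks, the lowest, with 100.8 next. The Xaf1 probe set used in the tests read 288.168 in 1 Trim24-/- liver of 14 weeks, with 172 next.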

How the results depend on the processing

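No call changed direction under any alternative. For Trim24-/- against WT at 5 weeks, 3 members were called, and the count was 0 with a pseudocount of 1, with only the groups compared in the fit, with animals 54, 66 and 82 averaged or with animals 1 and 8 averaged, 1 with every probe set fitted, 5 with a mean-variance trend or array weights, 6 over genes above the median level and 8 with all 22 arrays in the fit. For Trim24-/- Rara+/- against Trim24-/-, 1 was called, and the count was 0 in those first 4 settings, 2 with the mean of all probe sets or without WT animal 90 and Trim24-/- animal 6, 3 above the median level or with a trend, 7 with all 22 arrays and 8 with array weights. At 14 weeks 1 (Xaf1) was called above the median level and 0 in the other settings. Leaving out 1 array gave 0 to 7, 0 to 4, 0 to 0 (14 weeks) and 0 to 1 (interaction) calls, and 0 to 0 for Trim24-/- Rara+/- against WT. The call of Rtp4 was lost in 9 of 27 alternatives, that of Lgals3bp in 13 and that of Cmpk2 in 17, and that of Rtp4 between Trim24-/- Rara+/- and Trim24-/- in 9. Estimates that were not called turned sign in 10 cases between Trim24-/- Rara+/- and WT (5 of them Ifit3) and in 3 for the interaction (Xaf1). Reading Xaf1 from its other probe set, chosen after seeing the data, changed no count of called members and turned the sign of Xaf1 in the comparisons that involve Trim24-/- Rara+/- and at 14 weeks. The cause of these shifts was not tested. No paired analysis was possible because the groups share no animal numbers. Leaving out or averaging 5-week arrays leaves the 14-week comparison as it is, so these settings were not run there. Dim members (Cmpk2, Ifit2) lie near the pseudocount at 14 weeks, so that their differences there are understated.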
